A study of Mus musculus with 12 samples.

Results

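The levels of 7 genes that steer T cells and natural killer (NK) cells by chemotaxis were followed in tumours treated with 4 Fc fusion proteins. They are the chemokines Cxcl9, Cxcl10 and Cxcl11, which share the receptor CXCR3, the chemokine Cxcl16 with its receptor Cxcr6, the chemokine Ccl5, and Cxcr3 itself. The genes were chosen by symbol, and all 7 were among the 41009 symbols of the deposited table and among the 14306 genes that passed the filter on low values (3 or more of the 12 libraries at 1 FPKM or above, where FPKM counts fragments for each kilobase of transcript and 1e+06 fragments). Female BALB/c mice, aged 4 to 5 weeks, carried tumours in the mammary fat pad from 5000000 injected mCherry-4T1 cells, a mouse breast carcinoma line with a red fluorescent label. From day 7 the mice were treated intraperitoneally with Ctrl-Fc at 5 mg/kg (Ctrl), 3.5 mg/kg of VHH-OD-Fc, 2.6 mg/kg of VHH-PD-1-Fc, or 4.3 mg/kg of VHH-OD-PD-1-Fc. VHH stands for a nanobody, the lone binding domain of a camelid antibody. PD-1 restrains T cells, and VHH-OD-PD-1-Fc joins both binding parts by its name. The labels do not spell out OD, and the title of the series speaks of nanobodies to endogenous digoxin-like substances. The doses differ between the groups, so each comparison is between construct and dose together. Each group has 3 bulk RNA-seq libraries. Whether these came from separate animals is not in the labels, and the p-values therefore reflect only how these libraries vary, which may be technical.

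CXCL9, CXCL10 and CXCL11 are secreted mainly by macrophages, dendritic cells and tumour cells that sense interferon gamma, and they draw activated T cells and NK cells through CXCR3. CXCL16 is made as a membrane-bound protein, is cut free by the proteases ADAM10 and ADAM17, and engages CXCR6 on effector and tissue-resident T cells. CCL5 is made by T cells, NK cells and macrophages and draws T cells and monocytes. In bulk tissue, fewer cells of a type and less RNA per cell cannot be told apart.

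Before the results, 3 features of the libraries bear on them. The 6 libraries of the groups with the PD-1 arm summed to 388142 to 401179 FPKM and the 6 without it to 327792 to 345596, and no batch is named in the labels, so a batch that followed the arm cannot be told apart from it. The 3 libraries of VHH-OD-PD-1-Fc were more alike than those of the other groups, with a median SD over genes of 0.075 on the log2(FPKM + 1) scale. That SD was 0.140 for Ctrl, 0.123 for VHH-OD-Fc and 0.247 for VHH-PD-1-Fc. Calls of the 7 genes that rest on that group are therefore repeated with its 3 libraries as 1 sample. The first Ctrl library had the lowest summed tumour epithelium markers of the Ctrl group (1190 FPKM against 2780 and 2130) and the highest summed T cell markers (58.4 against 27.5 and 34). Depth was estimated at 43600000 to 60900000 reads per library from the step between low FPKM values.

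Per length, Cxcl16 was the most abundant of the 7 genes in every library, at 44.8 to 72.6 FPKM. Cxcl9 ranged from 15 to 38.2 FPKM, Ccl5 from 5.78 to 23 and Cxcl10 from 2.29 to 25.7. Cxcr3 ranged from 4.22 to 15 FPKM, Cxcl11 from 1.7 to 6.33 and Cxcr6 from 0.582 to 4.25. Estimated reads behind a value were 1114 to 3146 for Cxcl9 and 3504 to 5261 for Cxcl16, but 48 to 408 for Cxcr6 and 124 to 1588 for Cxcl10, so the last pair carry more counting error.

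**Figure D1:**
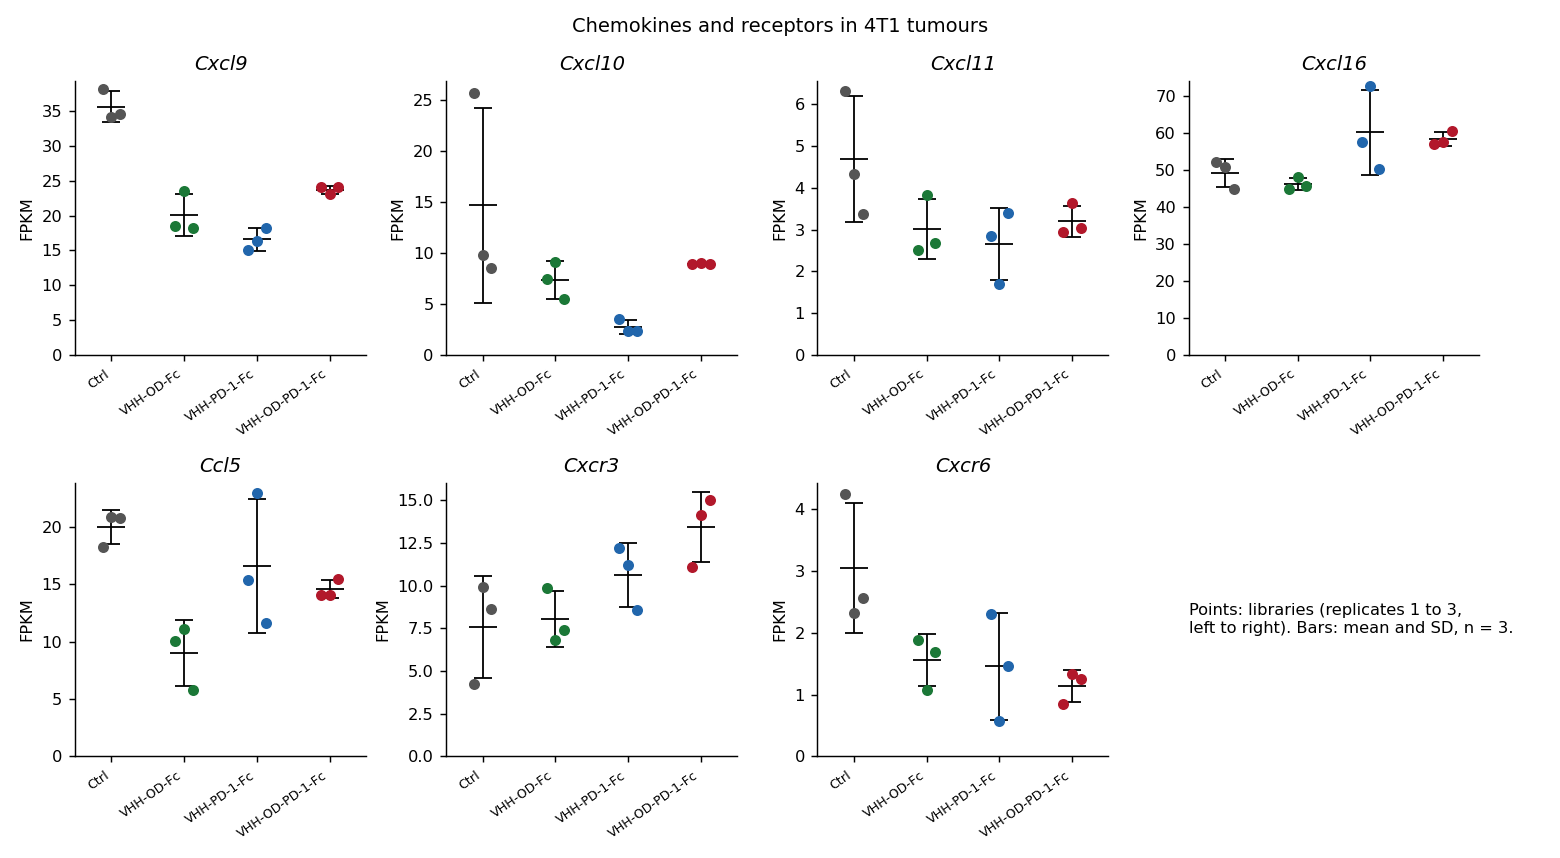
FPKM of each gene (y axes, linear and starting at 0) in the 3 libraries of each treatment group (points, replicates 1 to 3 from left to right), with bars for the mean and SD. Cxcl9 is highest in all 3 Ctrl libraries, Cxcl10 is lowest in the 3 VHH-PD-1-Fc libraries, and Cxcr3 is highest on average in VHH-OD-PD-1-Fc.

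The CXCR3 ligand Cxcl9 was lower with each of the 3 constructs than with Ctrl-Fc. It measured 38.2, 34.2 and 34.6 FPKM in the Ctrl libraries, and 18.5, 23.5 and 18.2 with VHH-OD-Fc. It measured 15, 16.4 and 18.3 FPKM with VHH-PD-1-Fc, and 24.1, 23.1 and 24.1 with VHH-OD-PD-1-Fc. No library of any construct reached the lowest Ctrl library. The order of the group means was Ctrl (35.7 ± 2.24, SD, n = 3), VHH-OD-PD-1-Fc (23.7 ± 0.571), VHH-OD-Fc (20.1 ± 2.98) and VHH-PD-1-Fc (16.6 ± 1.68). The libraries of VHH-OD-Fc overlapped with those of both neighbours in this order. The libraries of the last-named group lay entirely below those of VHH-OD-PD-1-Fc.

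The log2 fold change of Cxcl9 with VHH-PD-1-Fc was -1.06 (SE 0.11, limma, adjusted p = 9.4e-05), a 2.09-fold lower level on the log2(FPKM + 1) scale used for all fold changes here. The call was kept in 24 of 24 alternative settings, with values from -1.32 to -0.75. With VHH-OD-PD-1-Fc it fell by 0.57 (SE 0.11, adjusted p = 0.0025), and the adjusted p was 0.078 with those libraries counted as 1 sample. With VHH-OD-Fc the change was -0.81 (SE 0.11), the second smallest p of 14306 genes (1.51e-05), yet its adjusted p was 0.11 and no gene passed in that comparison.

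Cxcl10, like Cxcl9 induced by interferons but with type I interferon as a further strong inducer, was lowest with VHH-PD-1-Fc. It measured 25.7, 9.81 and 8.52 FPKM in Ctrl and 7.41, 9.15 and 5.47 with VHH-OD-Fc. With VHH-PD-1-Fc it measured 3.48, 2.32 and 2.29 FPKM, against 8.94, 8.97 and 8.89 with VHH-OD-PD-1-Fc. The VHH-PD-1-Fc libraries lay below those of the other 3 groups, which overlapped one another, and the first Ctrl library stood far above the rest. The group means ran from Ctrl (14.7 ± 9.57 FPKM, SD, n = 3) over VHH-OD-PD-1-Fc (8.93 ± 0.0389) and VHH-OD-Fc (7.34 ± 1.84) to VHH-PD-1-Fc (2.7 ± 0.676). Against Ctrl, Cxcl10 fell by 1.94 on the log2 scale with VHH-PD-1-Fc (SE 0.32, adjusted p = 0.00092), a call kept in 24 of 24 settings (-2.35 to -1.40). Against VHH-OD-Fc it was lower by 1.16 in the same units (log2 fold change -1.16, SE 0.32, adjusted p = 0.015), with an adjusted p of 0.052 (-1.01) without the second VHH-OD-Fc library. The changes of -0.77 with VHH-OD-Fc and -0.50 with VHH-OD-PD-1-Fc did not pass (adjusted p = 1 and 0.24), and without the first Ctrl library they were -0.31 and -0.03 (adjusted p = 1 and 0.91). As a description over the 6 libraries without the PD-1 arm, Cxcl10 ran with the summed markers of NK and cytotoxic cells (r = 0.96), macrophages (0.93) and T cells (0.91), and against those of tumour epithelium (-0.87). Over the 6 with the arm these values were 0.09, -0.49, -0.03 and -0.05. There it ran with the summed markers of neutrophils (r = 0.93) and of skeletal muscle (0.93), which had 0.12 and -0.41 without the arm. The first Ctrl library was highest without the arm in Cxcl10 and in the NK (73.8 FPKM), macrophage (1610) and T cell (58.4) sums. It was lowest in tumour epithelium (1190). It weighs heavily in the r values without the arm, and r without it was not computed. With the arm, Cxcl10 and the neutrophil and muscle sums stood apart by group, so r there mostly restates the groups. The part of these cells in the Cxcl10 level was not tested.

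The promoters of Cxcl9 and Cxcl10 are shown because both genes fell with VHH-PD-1-Fc against Ctrl in 24 of 24 settings. The sequences come from RefSeq's table for GRCm38.p6, the reference of another mouse strain than BALB/c. They run from 250 bases before to 50 bases after the start and are written 5′ to 3′ on the gene's strand. They lie at chr5:92328030-92328329 (minus strand) for Cxcl9 and chr5:92348840-92349139 (minus strand) for Cxcl10. Capitals mark matches, on either strand, to the core of the interferon-stimulated response element (GAAA, any 2 bases, GAAA) or to the NF-kB core (GGG, any 5 bases, CC).
Cxcl9: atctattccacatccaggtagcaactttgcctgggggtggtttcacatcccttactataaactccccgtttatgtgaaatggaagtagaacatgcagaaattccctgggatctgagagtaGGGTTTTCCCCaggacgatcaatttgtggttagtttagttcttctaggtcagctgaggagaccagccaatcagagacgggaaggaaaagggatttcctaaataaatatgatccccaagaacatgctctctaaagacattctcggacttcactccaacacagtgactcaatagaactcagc
Cxcl10: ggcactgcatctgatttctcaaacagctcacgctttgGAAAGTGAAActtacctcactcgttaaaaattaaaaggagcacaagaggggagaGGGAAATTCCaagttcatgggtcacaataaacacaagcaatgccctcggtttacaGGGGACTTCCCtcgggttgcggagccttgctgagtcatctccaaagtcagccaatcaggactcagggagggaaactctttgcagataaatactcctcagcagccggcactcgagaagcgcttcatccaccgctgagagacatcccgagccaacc
The Cxcl10 window held GAAAGTGAAA at bases 38 to 47, a match to the interferon element core that 3.44% of 32851 promoters of this length share. It also held NF-kB core matches at bases 92 to 101 and, overlapping one another, 147 to 157. The Cxcl9 window held overlapping NF-kB core matches at bases 121 to 131, and 50.8% of promoters hold at least 1 such match. Letters of the interferon gamma-activated sequence (TTC, any 3 bases, GAA) are in neither window and in 8.3% of promoters. A promoter was found for 4 of the 7 genes.

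Cxcl11, the remaining CXCR3 ligand, measured 6.33, 4.34 and 3.38 FPKM in Ctrl and 2.52, 3.83 and 2.69 with VHH-OD-Fc. It measured 2.84, 1.7 and 3.4 with VHH-PD-1-Fc and 2.94, 3.63 and 3.03 with VHH-OD-PD-1-Fc. The constructs overlapped one another and Ctrl, and the order of the means was Ctrl (4.69 ± 1.51), VHH-OD-PD-1-Fc (3.2 ± 0.375), VHH-OD-Fc (3.02 ± 0.713) and VHH-PD-1-Fc (2.65 ± 0.866). With VHH-PD-1-Fc it fell by 0.64 (SE 0.22, adjusted p = 0.033), but passed in only 11 of 23 settings. The adjusted p was 0.13 (-0.44) without the first Ctrl library, 0.059 (-0.67) without the second, and 0.12 (-0.44) without the second VHH-PD-1-Fc library, and 0.061 with VHH-OD-PD-1-Fc as 1 sample. RefSeq lists Cxcl11 as a transcribed pseudogene in the reference strain, and GENCODE M21 lists it both as protein-coding and as a polymorphic pseudogene. GENCODE also places an opposite-strand gene, Gm2673, over 41.7% of its exon bases, and the use of strand in counting is not given in the sources used here.

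Summed per library, Cxcl9, Cxcl10 and Cxcl11 came to 70.3, 48.3 and 46.5 FPKM in Ctrl and 28.4, 36.5 and 26.4 with VHH-OD-Fc. The sums were 21.3, 20.4 and 24 FPKM with VHH-PD-1-Fc and 35.9, 35.7 and 36 with VHH-OD-PD-1-Fc. Ctrl stood above all other libraries, and the VHH-PD-1-Fc libraries stood below all others. Cxcl10 made up 36.6, 20.3 and 18.3% of the sum in Ctrl, 26.1, 25.1 and 20.7% with VHH-OD-Fc and 24.9, 25.1 and 24.7% with VHH-OD-PD-1-Fc. With VHH-PD-1-Fc that share was 16.4, 11.4 and 9.56%, below every other library.

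**Figure D2:**
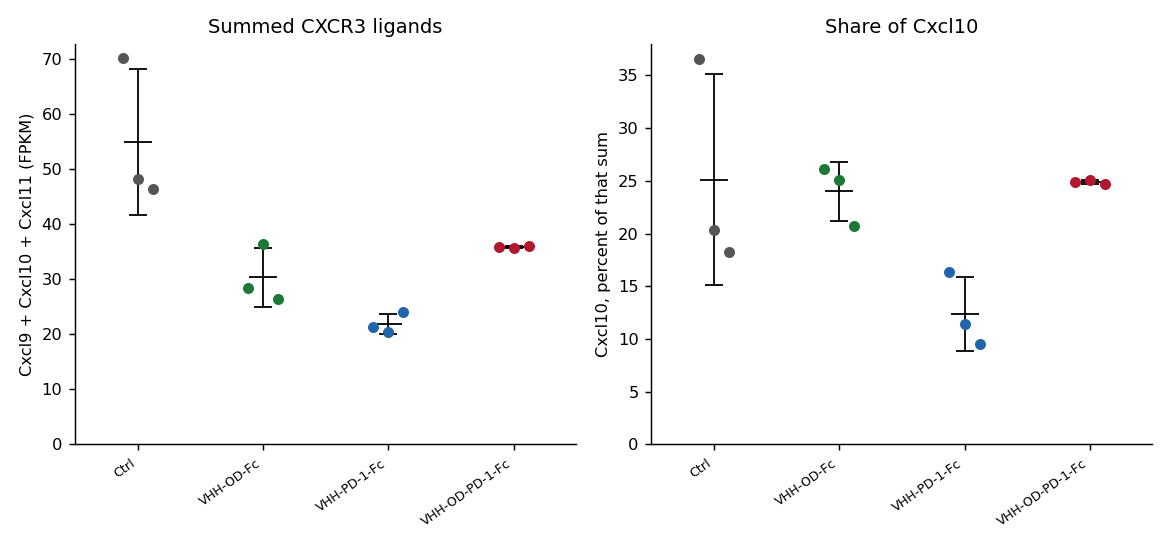
Left: summed FPKM of Cxcl9, Cxcl10 and Cxcl11 per library (points) with mean and SD (bars, n = 3). Right: percent of that sum made up by Cxcl10. The 3 VHH-PD-1-Fc libraries are the lowest of all 12 in both panels, and the 3 VHH-OD-PD-1-Fc sums lie between 35.7 and 36 FPKM.

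Ccl5 was lowest with VHH-OD-Fc. It measured 18.3, 20.9 and 20.8 FPKM in Ctrl and 10.1, 11.1 and 5.78 with VHH-OD-Fc. It measured 15.4, 23 and 11.6 FPKM with VHH-PD-1-Fc and 14.1, 14.1 and 15.5 with VHH-OD-PD-1-Fc. The VHH-OD-Fc libraries lay below those of every other group. The second VHH-PD-1-Fc library was the highest of all 12. The means ran from Ctrl (20 ± 1.47 FPKM) over VHH-PD-1-Fc (16.6 ± 5.8) and then VHH-OD-PD-1-Fc (14.6 ± 0.825) to VHH-OD-Fc (9.02 ± 2.85), and the spread of VHH-PD-1-Fc spanned the groups above and below it in this order.

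The change of Ccl5 with VHH-OD-Fc against Ctrl was -1.11 (SE 0.24, interval -1.64 to -0.58), the fifth smallest p of all genes tested (0.000724), with an adjusted p of 1. Against VHH-OD-Fc, Ccl5 was higher by 0.81 with VHH-PD-1-Fc (SE 0.24, adjusted p = 0.019) and by 0.68 with VHH-OD-PD-1-Fc (SE 0.24, adjusted p = 0.043). The former value was 0.55 (adjusted p = 0.074) without the third VHH-OD-Fc library and 0.56 (0.067) without the second VHH-PD-1-Fc library. The latter was 0.42 (adjusted p = 0.16) without the third VHH-OD-Fc library, and 0.68 (0.27) with VHH-OD-PD-1-Fc as 1 sample. It also missed the threshold without the second or the third Ctrl library (0.055 and 0.056), the first VHH-OD-Fc library (0.054), the first VHH-PD-1-Fc library (0.05) or any 1 VHH-OD-PD-1-Fc library (0.086 to 0.11). The summed NK and cytotoxic markers, from cells that express Ccl5, were 12.1 to 21.7 FPKM with VHH-OD-Fc, 25.6 to 73.8 in Ctrl, 17.5 to 30.1 with VHH-PD-1-Fc and 23.1 to 25.9 with VHH-OD-PD-1-Fc, with 5 of the 9 markers passing the filter and Klrb1c at 0 in all 3 VHH-PD-1-Fc libraries. Their part in the Ccl5 values was not tested.

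Cxcl16, the membrane-bound ligand, had the smallest ratio between its highest and lowest group means of the 7 genes. It measured 52, 50.7 and 44.8 FPKM in Ctrl and 44.9, 48.1 and 45.7 with VHH-OD-Fc. It measured 57.4, 72.6 and 50.1 with VHH-PD-1-Fc and 57.1, 57.4 and 60.6 with VHH-OD-PD-1-Fc. The 3 libraries of the last group lay above all 6 without the PD-1 arm, and those of VHH-PD-1-Fc overlapped Ctrl. Against Ctrl the changes were -0.09 with VHH-OD-Fc, 0.27 with VHH-PD-1-Fc (interval 0.00 to 0.54, adjusted p = 0.088) and 0.24 with VHH-OD-PD-1-Fc (interval -0.02 to 0.51, adjusted p = 0.12). The second of these passed in 3 of 24 settings and was 0.13 to 0.39 without 1 library, with the highest value, which passed, without the third VHH-PD-1-Fc library (adjusted p = 0.015). The third passed in 6 of 24 settings, among them library quality weights (0.34, adjusted p = 0.00031). Against VHH-OD-Fc, it was higher by 0.36 with VHH-PD-1-Fc (SE 0.12, adjusted p = 0.036) and by 0.33 with VHH-OD-PD-1-Fc (SE 0.12, adjusted p = 0.049). These passed in only 10 and 8 of 24 settings. Leaving out a single library gave 0.21 to 0.47 (adjusted p 0.0062 to 0.094) and 0.30 to 0.36 (adjusted p 0.0087 to 0.13). The first was lost without any 1 library of VHH-OD-Fc or of VHH-OD-PD-1-Fc or the second VHH-PD-1-Fc library (0.21, adjusted p = 0.094). The second was lost without any 1 library other than the second and the third VHH-PD-1-Fc libraries. With VHH-OD-PD-1-Fc as 1 sample the adjusted p values were 0.075 and 0.3. Zmynd15, on the opposite strand, overlaps 18.3% of the exon bases of Cxcl16 in GENCODE M21 and was listed at 2.74 to 17 FPKM.

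Among the receptors, Cxcr3 was highest with VHH-OD-PD-1-Fc. It measured 4.22, 9.93 and 8.62 FPKM in Ctrl and 9.88, 6.81 and 7.42 with VHH-OD-Fc. It measured 12.2, 11.2 and 8.54 FPKM with VHH-PD-1-Fc and 11.1, 14.1 and 15 with VHH-OD-PD-1-Fc. The last group lay above all 6 libraries without the PD-1 arm and overlapped VHH-PD-1-Fc, and the first Ctrl library was the lowest of all. The order of the means was VHH-OD-PD-1-Fc (13.4 ± 2.05 FPKM), VHH-PD-1-Fc (10.6 ± 1.88), VHH-OD-Fc (8.04 ± 1.62) and Ctrl (7.59 ± 2.99), and each pair of neighbours overlapped. Cxcr3 rose by 0.80 with VHH-OD-PD-1-Fc against Ctrl (SE 0.25, interval 0.25 to 1.36, adjusted p = 0.025). Without the first Ctrl library the value was 0.48 (adjusted p = 0.069). It was 0.76 (0.073) and 0.72 (0.084) without the second or the third VHH-OD-PD-1-Fc library, and the adjusted p was 0.19 with those libraries as 1 sample. Against VHH-OD-Fc the difference was 0.68 (adjusted p = 0.053), and it passed in 9 of 24 settings, among them without the first Ctrl library (0.01) and with only the 2 groups compared (0.0095). Against VHH-PD-1-Fc the value was 0.31 (adjusted p = 0.62, interval -0.25 to 0.87).

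Cxcr6, the receptor of CXCL16, had its lowest mean where Cxcr3 had its highest. It measured 4.25, 2.33 and 2.57 FPKM in Ctrl and 1.89, 1.08 and 1.7 with VHH-OD-Fc. It measured 2.31, 0.582 and 1.47 FPKM with VHH-PD-1-Fc and 0.843, 1.33 and 1.26 with VHH-OD-PD-1-Fc. All 9 libraries of the constructs lay below the lowest Ctrl library, and the 3 constructs overlapped one another. The order of the means was Ctrl (3.05 ± 1.05 FPKM), VHH-OD-Fc (1.56 ± 0.424), then VHH-PD-1-Fc (1.46 ± 0.865) and last VHH-OD-PD-1-Fc (1.14 ± 0.262). Against Ctrl, Cxcr6 fell by 0.90 with VHH-OD-PD-1-Fc (SE 0.26, adjusted p = 0.019) and by 0.76 with VHH-PD-1-Fc (SE 0.26, adjusted p = 0.035), and its change of -0.65 with VHH-OD-Fc did not pass (adjusted p = 1). Without the first Ctrl library the first 2 values were -0.69 (adjusted p = 0.071) and -0.55 (0.13). The former was also lost without the first VHH-OD-PD-1-Fc library (-0.79, 0.069) or with that group as 1 sample (0.17). The latter was also lost without the third Ctrl library (-0.83, 0.054), the second VHH-PD-1-Fc library (-0.47, 0.12) or the third (-0.79, 0.057), and with VHH-OD-PD-1-Fc as 1 sample (0.061). The Cxcr6 call with VHH-PD-1-Fc passed in 11 of 23 settings, and that with VHH-OD-PD-1-Fc in 19. Rescaling also lost the call with VHH-PD-1-Fc, by median of ratios (-0.61, adjusted p = 0.073), quantile scaling (-0.48, 0.14) or length and GC trends removed (-0.38, 0.24). So did library quality weights (-0.53, 0.16). The call with VHH-OD-PD-1-Fc was also lost with length and GC trends removed (-0.60, adjusted p = 0.073). In GENCODE M21 the body of Cxcr6 lies across that of Fyco1 on the opposite strand with no shared exon base.

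The receptors differed in how they ran with T cell markers. The 12 T cell markers, 8 of which passed the filter, summed to 27.5 to 58.4 FPKM in Ctrl, 13.5 to 24.7 with VHH-OD-Fc, 14.2 to 38.1 with VHH-PD-1-Fc and 20.8 to 22.5 with VHH-OD-PD-1-Fc. As a description over 6 libraries each, log2 values of Cxcr6 had a Pearson r with that sum of 0.83 without and 0.93 with the PD-1 arm, while those of Cxcr3 had -0.51 and -0.09. Cxcr3 had r = 0.91 with the summed tumour epithelium markers without the arm and 0.43 with it. With the skeletal muscle markers it had 0.15 without and 0.81 with the arm, and with the neutrophil markers -0.37 and 0.66. Without the arm, the first Ctrl library was lowest in Cxcr3 (4.22 FPKM) and in the tumour epithelium sum (1190). That library was also highest in Cxcr6 (4.25) and in the T cell sum (58.4). It weighs heavily in the r values without the arm, and r without it was not computed. With the arm, the muscle and neutrophil sums stood apart by group, so r there partly restates the groups. Over the 6 libraries with the arm, Cxcr6 was highest in the first VHH-PD-1-Fc library (2.31 FPKM) and lowest in the second (0.582). The T cell sum was highest (38.1) and lowest (14.2) in the same libraries, and r of Cxcr6 without them was not computed. Cd3e, a defining T cell gene, was at 0.362 to 1.56 FPKM. Per length, Cxcr3 was 2.7 to 25.2 times Cd3e (median 12.8) and Cxcr6 was 1.06 to 4.7 times Cd3e (median 1.89). Which cells carried the Cxcr3 RNA was not tested.

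**Figure D3:**
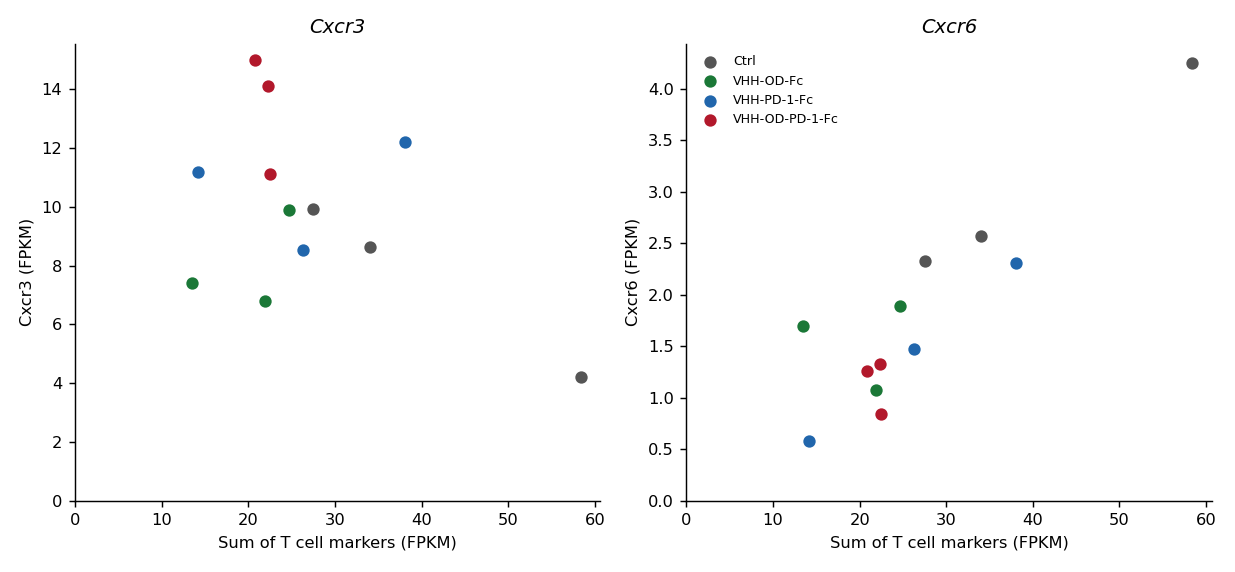
FPKM of Cxcr3 (left) and Cxcr6 (right) against the summed FPKM of the 12 T cell markers, 1 point per library, coloured by group. The first Ctrl library has the highest marker sum (58.4), the lowest Cxcr3 (4.22) and the highest Cxcr6 (4.25).

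Counted over the 7 genes, the calls were as follows. With VHH-OD-Fc against Ctrl, 0 of 7 passed limma's test, as did 0% of all 14306 genes. At an unadjusted p under 0.05 there were 5 of the 7 and 3.14% of all genes, and library quality weights gave 2 calls (Cxcl9 at 0.0041 and Ccl5 at 0.045) among 4 of all 14306 genes, all lower. With VHH-PD-1-Fc against Ctrl, 4 of 7 fell (Cxcl9, Cxcl10, Cxcl11 and Cxcr6) and 0 rose, where 46.9% of all genes passed, 32.3% lower and 14.6% higher. With VHH-OD-PD-1-Fc against Ctrl, Cxcl9 and Cxcr6 fell and Cxcr3 rose, 3 of 7 where 42.2% of all genes passed, 27.1% lower and 15.1% higher. With so many genes past the test, counts of this size are no result about the 7 genes. The split of all genes depends on the scaling: with VHH-PD-1-Fc against Ctrl, 2092 were higher and 4615 lower as deposited, 3150 and 2812 of 14237 tested with median-of-ratios scaling, and 1831 and 7584 of 18401 tested as TPM (FPKM rescaled to a fixed sum per library). Cxcl9 and Cxcl10 stayed lower and called under each of these. The median change of all genes was -0.02, -0.19 and -0.14 in the 3 comparisons, and that of the 7 genes -0.65, -0.64 and -0.43. These comparisons share the Ctrl libraries.

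**Figure D4:**
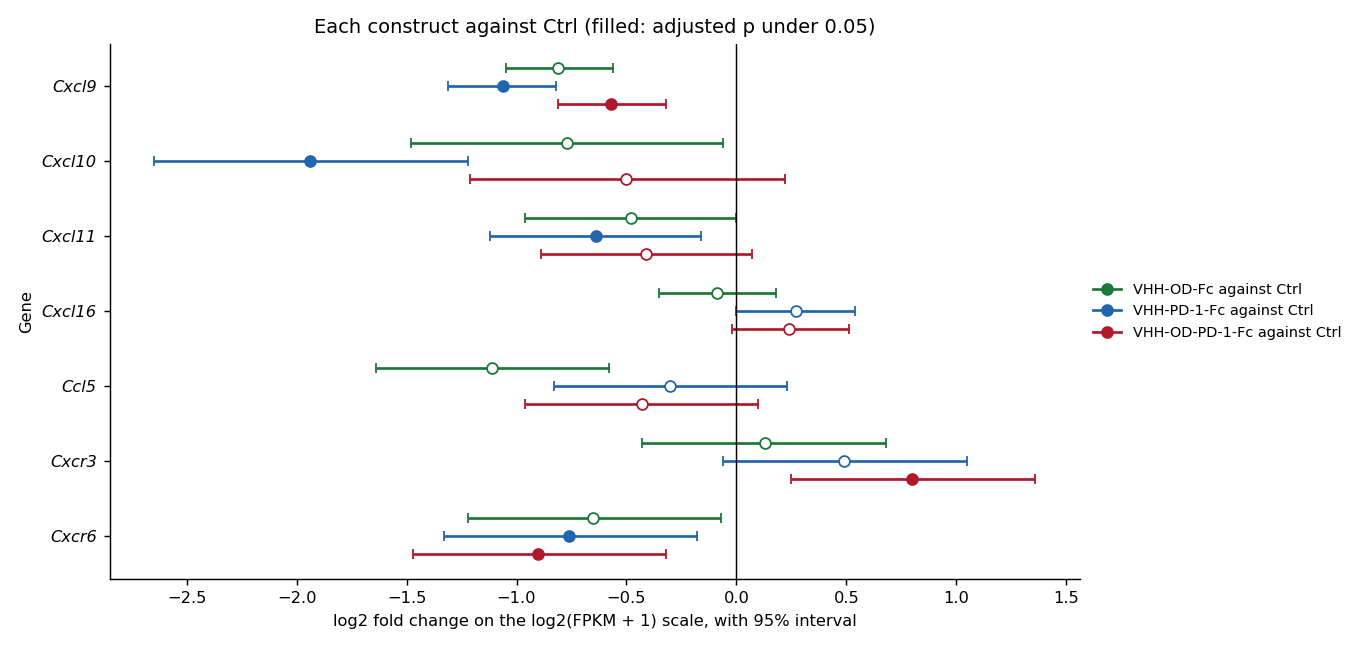
Log2 fold change against Ctrl on the log2(FPKM + 1) scale (x axis) with its 95% interval for each gene and construct; filled points have an adjusted p under 0.05. Filled points are Cxcl9, Cxcl10, Cxcl11 and Cxcr6 for VHH-PD-1-Fc, and Cxcl9, Cxcr3 and Cxcr6 for VHH-OD-PD-1-Fc.

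Between constructs, Cxcl10 was lower and Cxcl16 and Ccl5 higher with VHH-PD-1-Fc than with VHH-OD-Fc, 3 of 7 where 42.6% of all genes passed. Ccl5 and Cxcl16 were higher with VHH-OD-PD-1-Fc than with VHH-OD-Fc, 2 of 7 where 39.9% passed. Between VHH-OD-PD-1-Fc and VHH-PD-1-Fc, limma called 0 of 7, where 0.839% of all genes passed. At an unadjusted p under 0.05 there were 2 of 7 in that comparison and 15.5% of all genes. These were Cxcl9, higher by 0.50 with VHH-OD-PD-1-Fc (interval 0.26 to 0.74, adjusted p = 0.065), and Cxcl10, higher by 1.44 (interval 0.73 to 2.15, adjusted p = 0.067), both without overlap of the groups, as 13.8% of all genes were in that direction. Without the first Ctrl library, which enters the shared variance, Cxcl10 passed (1.44, adjusted p = 0.007), as it did without the first VHH-PD-1-Fc library (1.59, 0.049). Cxcl9 passed without the third VHH-PD-1-Fc library (0.57, adjusted p = 0.03). Of 24 alternative settings, however, Cxcl9 passed limma's test in only 2 and Cxcl10 in only 4. Leaving out 1 library raised the adjusted p to as much as 0.25 for each gene. The summed neutrophil markers were 1900 to 1950 FPKM with VHH-OD-PD-1-Fc and 399 to 1200 with VHH-PD-1-Fc, and those of skeletal muscle 172 to 174 and 5.37 to 30.6. Over these 6 libraries Cxcl9 had r = 0.72 and 0.75 with the sums, beside the values of Cxcl10 above, and the part of these cells in the differences was not tested. These r values mostly restate the difference between the groups.

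The design also allows a comparison of VHH-OD-PD-1-Fc with the sum of the single-arm changes on the log2 scale. For Cxcl9 that sum (-0.81 and -1.06 added) lay below the -0.57 measured with both arms, and the difference from additivity was 1.31 (SE 0.16, interval 0.96 to 1.65, adjusted p = 0.013, the fourth smallest p of all genes). It was 1 of 7 calls, where 0.112% of all genes passed, 13 genes higher and 3 lower. The call was lost without the third Ctrl library (adjusted p = 0.051) and without any 1 VHH-OD-PD-1-Fc library (0.09 to 0.096), and the adjusted p was 0.54 with those libraries as 1 sample, while the value stayed at 1.20 to 1.42. For Cxcl10 the difference was 2.21 (SE 0.46, interval 1.21 to 3.22, adjusted p = 0.10), and 1.75 (adjusted p = 0.049) without the first Ctrl library. The Cxcl10 difference passed in only 2 of 23 settings, and without 1 library its adjusted p reached 0.28. For Ccl5 it was 0.98 (interval 0.23 to 1.73, adjusted p = 0.29) and for Cxcl11 0.71 (interval 0.03 to 1.39, adjusted p = 0.39). Those of Cxcl16, Cxcr3 and Cxcr6 were 0.06, 0.18 and 0.51, with intervals that span 0. Each construct had its own dose, so the sum adds changes at unequal doses.

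**Figure D5:**
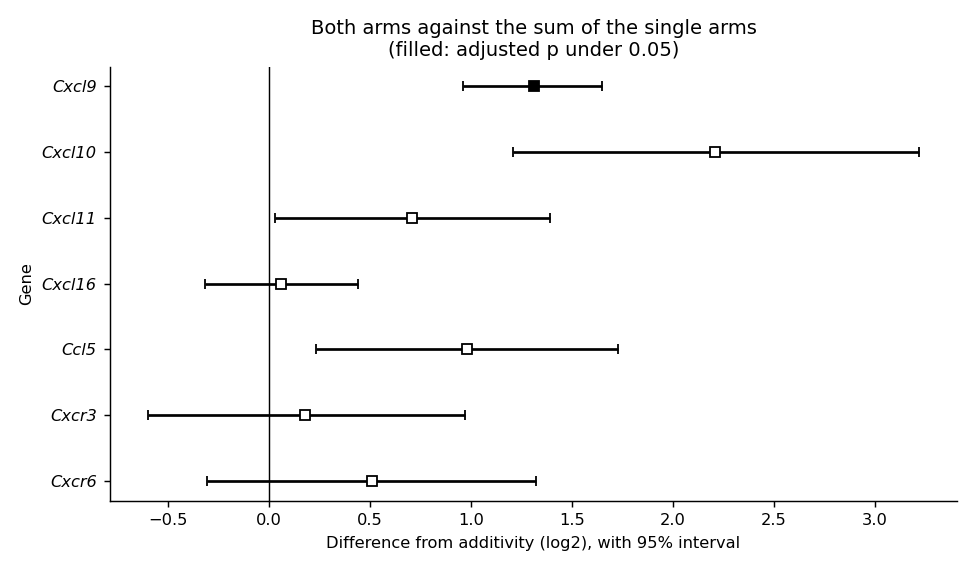
Difference between the change with VHH-OD-PD-1-Fc and the sum of the changes with VHH-OD-Fc and VHH-PD-1-Fc, all against Ctrl (x axis, log2), with 95% intervals per gene; the filled square has an adjusted p under 0.05. Cxcl9 (1.31) is filled, and Cxcl10 has the widest interval (1.21 to 3.22).

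Genes that act upstream of these chemokines were read from a list of 12 for interferon gamma signalling. The list also holds Tnf and the NF-kB genes Nfkb1 and Rela. Against Ctrl, 7 of the 12 fell and 1 rose with VHH-PD-1-Fc, and 7 fell with VHH-OD-PD-1-Fc, with medians over the list of -0.41 and -0.40. The counts of this and the following lists stand beside 32.3% of all genes lower and 14.6% higher in the former comparison (median -0.19), and 27.1% and 15.1% in the latter (median -0.14). In a setting added after the data were seen, VHH-OD-PD-1-Fc entered as 1 sample. Then 5.32% of all genes were lower and 3.85% higher, and in this list 0 of 12 passed. Irf1, a transcription factor induced by interferon gamma, measured 68.1, 65.2 and 65.6 FPKM in Ctrl and 49.6, 25.1 and 37.9 with VHH-PD-1-Fc. It fell by 0.86 (SE 0.19, adjusted p = 0.0037) with VHH-PD-1-Fc and by 0.60 (adjusted p = 0.023, or 0.21 as 1 sample) with VHH-OD-PD-1-Fc. Socs1, the feedback inhibitor of this signalling, fell by 1.22 (SE 0.21, adjusted p = 0.0012) and by 0.76 (adjusted p = 0.016, or 0.17 as 1 sample). Rela, a subunit of NF-kB, was the gene that rose with VHH-PD-1-Fc, by 0.46 (SE 0.07, adjusted p = 0.00068). Ifng itself, named after its values were seen, was at 0.936 to 1.58 FPKM in Ctrl and 0.106 to 0.672 with VHH-PD-1-Fc, a fall of 0.73 (log2 fold change -0.73, SE 0.18, adjusted p = 0.0067). It passed the filter only through Ctrl and VHH-OD-PD-1-Fc libraries.

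Of the scavenging receptors and proteases (5 of 8 tested), 4 fell with VHH-PD-1-Fc and 1 with VHH-OD-PD-1-Fc (medians -1.01 and -0.52), the latter near the share of all genes. With that group as 1 sample, Adam17 was the 1 of 5 that passed (-0.67, adjusted p = 0.037). Adam17, a sheddase that can cut CXCL16, measured 18.3, 15.8 and 16.2 FPKM in Ctrl and 9.74, 8 and 9.89 with VHH-PD-1-Fc, and fell by 0.80 (SE 0.09, adjusted p = 0.00017). Adam10, the other such sheddase, had a change of -0.21 (adjusted p = 0.54). Mmp9, a matrix protease that trims CXCR3 ligands, fell by 1.21 (adjusted p = 0.023), and Ackr1, a chemokine scavenger of venules, had a change of -1.01 (adjusted p = 0.011). Ackr1 passed the filter only through libraries without the PD-1 arm, at 1.66 FPKM in Ctrl and 2.49 and 1.18 with VHH-OD-Fc. It measured 0, 0.163 and 0.0551 FPKM with VHH-PD-1-Fc. A call other than lower was thus hardly open to it, and its place among the 4 that fell says little.

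Other chemokines for T cells (7 of 10 tested) held 3 that fell with VHH-PD-1-Fc and 2 with VHH-OD-PD-1-Fc (medians -1.04 and -0.94), counts near the shares of all genes, and 0 of 7 with the latter group as 1 sample. Cxcl13, which draws B cells and follicular helper T cells, measured 31, 6.78 and 15.5 FPKM in Ctrl and 0.304, 0.319 and 1.45 with VHH-PD-1-Fc, a fall of 3.31 (log2 fold change -3.31, SE 0.65, adjusted p = 0.0022). Cxcl12, the ligand of CXCR4, fell by 1.58 (SE 0.26, adjusted p = 0.00089), and Cx3cl1 had a change of -0.26 (adjusted p = 0.40). Cxcl12 passed the filter only through libraries without the PD-1 arm and was at 0.102 to 0.315 FPKM with VHH-PD-1-Fc. Cxcl13 reached 1 FPKM in every library without the arm, and with it only in the third of VHH-PD-1-Fc (1.45). A call other than lower was thus hardly open to Cxcl12 or Cxcl13. Of the other receptors of T and NK cells (5 of 10 tested), 3 fell with VHH-PD-1-Fc and 2 with VHH-OD-PD-1-Fc (medians -0.93 and -0.80). With the latter group as 1 sample, Cxcr4 was the 1 of 5 that passed (-1.20, adjusted p = 0.043). With VHH-PD-1-Fc, Cxcr4, the CXCL12 receptor, fell by 1.78 (SE 0.19, adjusted p = 0.00011) and S1pr1, which guides lymphocyte exit, by 1.01 (adjusted p = 0.0013), while Cx3cr1 had a change of -0.25 (adjusted p = 0.60). Of 13 genes of signalling below chemokine receptors, 9 fell and 1 rose with VHH-PD-1-Fc, and 6 fell and 1 rose with VHH-OD-PD-1-Fc (medians -0.61 and -0.38), and 0 of 13 passed with the latter group as 1 sample. With VHH-PD-1-Fc, Gng2, a G protein subunit, fell by 0.68 (adjusted p = 0.0014) and Itgal, the integrin chain that lets leukocytes stick, by 0.73 (adjusted p = 0.0027). Gnai2, the inhibitory G protein subunit these receptors use, rose by 0.38 (adjusted p = 0.03), and Gnb1 had a change of 0.07 (adjusted p = 0.44). None of these lists held a call with VHH-OD-Fc against Ctrl, between VHH-OD-PD-1-Fc and VHH-PD-1-Fc or in the difference from additivity. The summed fibroblast markers were 568 to 804 FPKM in Ctrl and 222 to 458 with VHH-PD-1-Fc, the endothelial ones 20.9 to 29.8 and 11.5 to 15, and their part in these changes was not tested.

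The genes whose log2 values ran most like each of the 7 were ranked by the lower of the Pearson r over the 6 libraries without and the 6 with the PD-1 arm, as a description of libraries that share groups and scaling. For Cxcl10 these were Oas2 (0.973 and 0.992), Isg15 (0.997 and 0.972) and Slc25a22 (0.965 and 0.979), of which the first pair are known interferon-induced genes. For Cxcl11 the first was Gbp5 (0.953 and 0.941), a guanylate-binding protein known to be induced by interferon gamma, followed by Pcf11 and Eed. For Cxcl9 they were Phf11c (0.920 and 0.941), Rpa2 and Sfpq. For Cxcr6 they were Gabpb2, Pold2 and Cd8a (0.906 and 0.900), the last a marker of cytotoxic T cells. For Cxcr3 they were Wnt5a (0.883 and 0.873), Bpgm and Plau, and no T cell gene was among them. For Cxcl16 they were Arpc4, Rbfa and Triap1, and for Ccl5 Tor2a, Mrps26 and Rpl7l1. Within the set, Cxcl9 and Cxcl10 had r = 0.73 without and 0.88 with the arm. Cxcl9 and Ccl5 had 0.92 and -0.34, and Cxcl16 and Ccl5 0.48 and 0.99. With the arm, the second VHH-PD-1-Fc library was highest in both Cxcl16 (72.6 FPKM) and Ccl5 (23). It weighs heavily in the 0.99, and r without it was not computed.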

How the data were processed

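Poly(A) RNA of 12 mCherry-4T1 tumour libraries was read in pairs of 150 bp, per the labels' protocols. The authors deposited 1 table of FPKM values. Tools in the submitters' processing notes include fastp 0.22.0 and HISAT2 2.2.1. The notes give a human build, GRCh38, for a table of mouse symbols. Quantifier, annotation and strand setting: not given in the sources used here. The series' design text describes another tumour and digoxin, and the sample labels were followed.

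From the deposited FPKM, log2(FPKM + 1) of 14306 genes (FPKM of at least 1 in at least 3 libraries) was fitted with limma 3.58.1 in R 4.3.3, with a variance trend, all 12 libraries in 1 fit and no covariate. Calls have a Benjamini-Hochberg adjusted p under 0.05 over all genes tested, two-sided. Tested on simulated data for VHH-PD-1-Fc against Ctrl over 14306 genes, the fit recovered 75% of changes of 1 (log2) and 23% of 0.5, with 1 false call. Each simulated gene had the same normal spread in all groups, and few genes were changed. The simulation therefore cannot show recovery or false calls under the unequal spreads and many changes of these data. Depth was estimated by taking the step between low values as 1 read, and 94.5 to 96.0% of such values were whole to within 0.05. Same-numbered libraries had r of -0.15 to 0.18 in their deviations, so the numbers were not used as pairs. The members and lists were chosen with earlier results of these data known. Named genes are the 7 members, the 3 most like each, and in each list the 2 tested genes of highest mean FPKM with the 2 of smallest p for VHH-PD-1-Fc against Ctrl. A list of further genes of the CCL5 system is not reported here. Up to 24 settings were varied for each result.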

Additional observations from a re-analysis of the deposited data

Results flagged for a closer look

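The change in Cxcl9 that went with the OD arm differed with and without the PD-1 arm by 1.31 on the log2 scale, in a test of the difference itself (limma, adjusted p = 0.013). Doses differed between the groups, so this change is that of arm and dose together. Without the PD-1 arm the change was -0.81 (VHH-OD-Fc against Ctrl, adjusted p = 0.11). With it the change was 0.50 (VHH-OD-PD-1-Fc against VHH-PD-1-Fc, adjusted p = 0.065), and neither change passed. In the latter comparison the groups did not overlap in Cxcl9, as held for 13.8% of all genes in that direction. The call on the difference was lost without the third Ctrl library (adjusted p = 0.051) or with the replicate block (0.055). With VHH-OD-PD-1-Fc as 1 sample the adjusted p was 0.54, and no single VHH-OD-PD-1-Fc library could be left out without losing the call (0.09 to 0.096).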

How the results depend on the processing

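Counts of the 7 genes that passed moved as follows. With VHH-OD-Fc against Ctrl, library quality weights gave 2 in place of 0. Under median of ratios, or with length and GC trends removed, Cxcl11 and Cxcr6 left the calls of VHH-PD-1-Fc against Ctrl. Cxcl16 entered those calls as higher (0.49 and 0.51). With VHH-PD-1-Fc against Ctrl, 2 in place of 4 passed with no filter, a mean FPKM of at least 5, quantile scaling, quality weights, the first Ctrl and second VHH-OD-Fc and VHH-PD-1-Fc libraries left out together, the VHH-OD-PD-1-Fc libraries as 1 sample, or only the 2 groups compared. With VHH-OD-PD-1-Fc against Ctrl, 5 in place of 3 passed with quality weights or only the 2 groups compared, where 69.2% and 53% of all genes passed, and 0 with VHH-OD-PD-1-Fc as 1 sample, where 9.17% did. With VHH-OD-PD-1-Fc against VHH-OD-Fc, 0 in place of 2 passed with no filter, TPM or VHH-OD-PD-1-Fc as 1 sample, 1 with a mean FPKM of at least 5 or the replicate block, and 4 with median of ratios, quality weights or without those 3 libraries. Between VHH-OD-PD-1-Fc and VHH-PD-1-Fc, 2 in place of 0 passed without the 3 libraries and 1 with only the 2 groups. With VHH-PD-1-Fc against VHH-OD-Fc, 1 in place of 3 passed with no filter, quality weights or only the 2 groups. For the difference from additivity, 0 in place of 1 passed with the replicate block or VHH-OD-PD-1-Fc as 1 sample, and 2 without the 3 libraries. Leaving out 1 library gave 0 to 0, 2 to 4, 1 to 4, 0 to 2, 0 to 1, 1 to 4 and 0 to 2 calls in the same order. The cause of these moves was not tested. The stricter filter tested 5 of the 7 genes, Cxcl11 and Cxcr6 being too low.

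With the replicate block Cxcl11 and Cxcl16 also left the threshold (adjusted p = 0.055 for VHH-PD-1-Fc against Ctrl and 0.05 for VHH-OD-PD-1-Fc against VHH-OD-Fc). The numbers pair libraries by name only, and each library correlated best with its own number in 11 of 36 cases.

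Signs turned for values that passed in neither setting. For VHH-OD-Fc against Ctrl, Cxcr3 was -0.00 with quality weights, -0.10 without the 3 libraries and -0.20 to 0.34 without 1 library. For VHH-OD-PD-1-Fc against VHH-OD-Fc, Cxcl11 was -0.11 with TPM and -0.01 to 0.22 without 1 library, and Cxcr6 0.02 with length and GC trends removed. For VHH-OD-PD-1-Fc against VHH-PD-1-Fc without the 3 libraries, Cxcl16 and Ccl5 were 0.12, and without 1 library -0.14 to 0.12 and -0.35 to 0.12, with Cxcr6 at -0.42 to 0.11. For VHH-PD-1-Fc against VHH-OD-Fc with length and GC trends removed, Cxcl9 was 0.03 and Cxcl11 and Cxcr6 were 0.25. With quantile scaling Cxcl11 was 0.09 and Cxcr6 0.13, without the 3 libraries 0.19 and 0.03, and without 1 library -0.30 to 0.05 and -0.36 to 0.18. For the difference from additivity, Cxcl16 was -0.04 with median of ratios, -0.03 with trends removed and -0.06 to 0.20 without 1 library. Cxcr3 was -0.03 to 0.51 without 1 library, and Cxcr6 -0.12 without the 3 libraries.

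Of the 7 genes, Cxcr6 had the fewest estimated reads, at 48 to 408 per library.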
